A study of Mus musculus with 9 samples.

Results

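Complement and coagulation are cascades of plasma proteases, and most of their proteins are made by hepatocytes. The genes described here are 42 complement, clotting and inhibitor genes, taken as a fixed list of symbols. All 42 were found among the 20325 genes of each deposited table. They comprise 19 complement genes, 14 clotting and fibrinolysis genes and 9 genes for inhibitors and other regulators of these cascades.

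In complement, antibody (the classical route), microbial sugars (the lectin route) or slow spontaneous turnover (the alternative route) start the cleavage of the central protein C3, and the later proteins assemble into a pore in the target membrane. In clotting, a contact route and a tissue factor route meet at factor X, which with factor V as its cofactor turns prothrombin into thrombin, and thrombin cuts fibrinogen into fibrin. Serpins hold both cascades in check, the protein C system restrains clotting, and plasmin dissolves the clot. Several of these transcripts are acute phase genes of the liver, driven by interleukin-6.

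Polyadenylated RNA of whole livers from male C57BL/6J mice on chow was sequenced, with 3 libraries in each of 3 groups. ConvD mice were born germ-free and received cecal contents of conventionally raised donors by a single gavage at 15 weeks of age, then carried this microbiota for 4 weeks. GF+SCFA mice had no microbes, and their water held 67.5 mM acetate, 25.9 mM propionate and 40 mM butyrate, short-chain fatty acids that gut bacteria make by fermentation. GF mice stayed germ-free without a supplement. The labels disagree on age, giving 14 weeks in the design and dissection at 19 weeks in the growth protocol. Mice shared cages by colonisation status, so cage and group cannot be told apart, and the labels do not tie libraries to named animals, so p-values reflect only how these samples vary. In whole liver, fewer cells of a type and less RNA per cell cannot be told apart.

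The libraries held 18193071 to 21627696 expected counts, and 12037 genes passed the filter on low counts, all 42 members among them. Hepatocyte markers, a list of 10 genes that includes the member Fgb, made up 9.75% to 12.6% of the TPM (a level per transcript length, scaled to the same total in every library) in ConvD livers, 9.77% to 11.1% in GF+SCFA livers and 10.2% to 12.5% in GF livers. Levels are compared between genes in TPM, and groups are compared in CPM, the same scale for counts without length, with library totals scaled by the trimmed mean of M values. Overlap between groups is judged in CPM too, and TPM can give another answer. A gene is called changed where the adjusted p of edgeR's quasi-likelihood F test, over all genes tested, is under 0.05.

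The members covered a wide range of levels. Their mean TPM over the 9 libraries ran from 21.4 for Cfp to 3564 for Fgb, which ranked 37th among all genes. Summed, the 42 genes held 2.55% to 2.91% of the TPM in ConvD livers, 2.35% to 2.44% in GF+SCFA livers and 2.41% to 2.73% in GF livers. The 3 fibrinogen chains, the precursor of fibrin, led the list, with Fgb followed by Fgg at a mean of 2715 TPM and Fga at 1878 TPM. C3 came next at 1837 TPM, close to Fga. Kng1 (kininogen), Vtn (vitronectin), Plg (plasminogen), Serpinc1 (antithrombin) and F2 (prothrombin) lay between 1166 and 1550 TPM. A gap followed, since Cfb, the tenth member, stood at 597 TPM. At the lower end were F7 at 72.6, C2 at 70.9, Masp1 at 52.7, Pros1 at 29.3 and Cfp at 21.4 TPM.

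**Figure D1:**
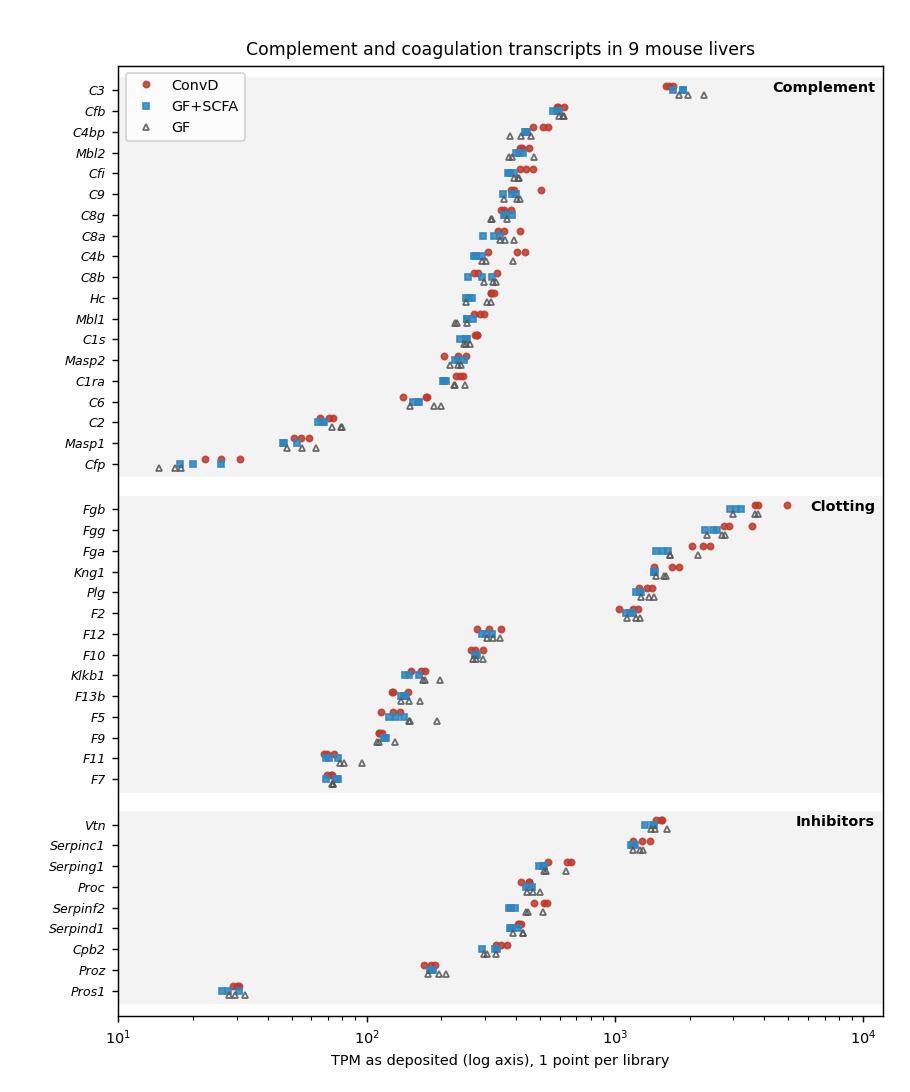
Deposited TPM (log axis) of each member in each of the 9 libraries, 1 point per library, ordered within complement, clotting and inhibitor genes by mean TPM. Red circles are ConvD, blue squares GF+SCFA and open triangles GF livers; members span 21.4 to 3564 mean TPM, and the 3 groups lie close together for most of them.

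The members varied little between livers. The highest of the 9 libraries exceeded the lowest by 1.13-fold for Serpinc1, by 1.28-fold for the median member and by 1.94-fold for Cfp. Within a group, the coefficient of variation of the CPM had a median over members of 6.32% in ConvD livers, 4.88% in GF+SCFA livers and 7.89% in GF livers. C9, a subunit of the membrane pore, varied most among ConvD livers (20.4%), and C4b varied most among GF livers (21.6%).

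One library stood apart for these genes. GF replicate 2 held the highest CPM of the 9 libraries in 27 of 42 members (64.3%), against 11.5% of all genes tested, and lay above the mean of the 9 libraries in 36 of 42. Its median deviation over the members was 0.15 on the log2 scale, and -0.00 over all genes. It led in 11 of 19 complement, 9 of 14 clotting and 7 of 9 inhibitor genes. In TPM the same library led in 13 of 42 members (31.0%), against 3.97% of all genes. Other libraries leaned low: GF replicate 3, GF+SCFA replicate 2 and ConvD replicate 1 each lay below the mean in 32 of 42 members. Their median deviations were -0.06, -0.09 and -0.04. In complement genes GF replicate 3 lay below in 18 of 19. GF replicate 2 affects each comparison with GF, so the called members and the splits of signs below are also given without it. Splits of signs are not given without any other library.

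**Figure D2:**
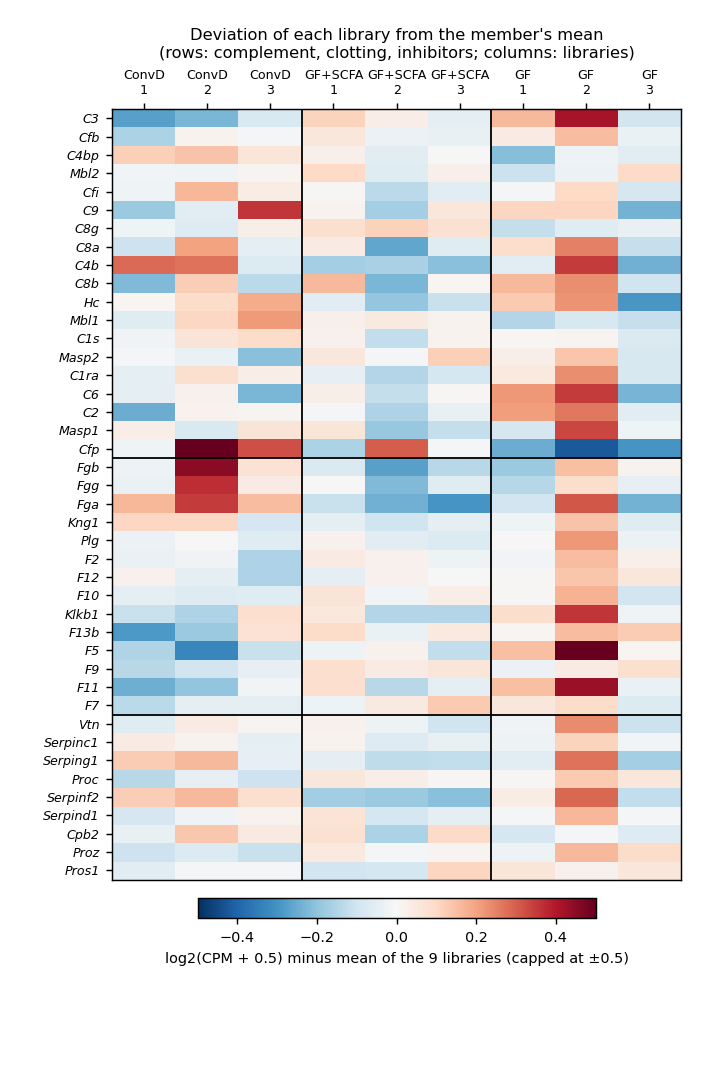
Deviation of each library (columns, ConvD, GF+SCFA, GF) from each member's mean over the 9 libraries, as log2(CPM + 0.5), with rows in the order of the plot of levels and colours capped at ±0.5. The column of GF replicate 2 is red (above the mean) in 36 of 42 rows, whereas Cfp, at the foot of the complement rows, is blue in all 3 GF libraries.

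The comparison of ConvD with GF livers asks what a microbiota changes. Of the complement and coagulation genes 2 of 42 were called (4.76%), against 12.8% of all genes tested. Cfp, which encodes properdin, was 1.54-fold higher in ConvD livers, and F5, which encodes clotting factor V, was lower at 0.733 of the GF level. That is 1 of 42 in each direction, against 5.93% of all genes called higher and 6.90% called lower (714 and 830 genes, or 1058 and 543 with upper-quartile factors and 1061 and 391 with unscaled library totals). Over all 42 genes, 17 had log2 fold changes above 0 and 25 below (59.5%, against 49.5% of all genes), and the median was -0.06, against 0.00 over all genes. By role, 1 of 19 complement, 1 of 14 clotting and 0 of 9 inhibitor genes were called by edgeR, with medians of 0.00, -0.11 and -0.05. Without GF replicate 2 these counts were 0, 1 and 0, and the medians 0.06, -0.07 and 0.02, so the inhibitor median changed sign. Of the inhibitors 2 of 9, Proc and Proz, had an unadjusted p under 0.05, and DESeq2 called 0 of 9.

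These data bound most differences closely. The 95% interval of the fold change lay within 1.5-fold either way for 39 of 42 members, against 64.3% of all genes, the exceptions being Cfp, C3 and F5. ConvD and GF libraries did not overlap in 9 of 42 members (21.4%), against 31.6% of all genes. Cfp, C4bp and Mbl1 were higher in every ConvD library than in any GF library, and F2, F5, F9, Proc, Pros1 and Proz were lower. Over all genes 15.7% were higher and 15.9% lower in this way. An unadjusted p under 0.05 was found for 10 of 42 members, 3 higher and 7 lower, against 28.6% of all genes, 14.0% higher and 14.6% lower. Without GF replicate 2 the split of signs was 21 above and 21 below 0, the median was 0.01, and Fga was the 1 gene called. The split depends on scaling as well: 17 above and 25 below 0 became 21 and 21 with upper-quartile factors and 23 and 19 with unscaled library totals. Those scalings moved all genes alike. The median over all genes became 0.063 and 0.081, and that of the members -0.003 and 0.017, so the members stayed below all genes.

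GF+SCFA and GF livers were compared for what short-chain fatty acids change without microbes. None of the 42 members was called by edgeR (0 of 42) or by DESeq2 (0 of 42), against 0.0415% of all genes by edgeR (0.00831% higher and 0.0332% lower), which is 5 genes, and 80 genes by DESeq2. An unadjusted p under 0.05 was found for 6 of 42 members, Cfp and C8g higher and Serpinf2, F5, Klkb1 and C2 lower, against 12.3% of all genes, 5.09% higher and 7.18% lower. Libraries did not overlap in 4 of 42 members (9.52%), 3 higher and 1 lower, against 17.9% of all genes, 9.06% higher and 8.86% lower. Values leaned low, with 33 of 42 members below 0 against 51.3% of all genes, and a median of -0.07 against -0.01. Without GF replicate 2 the lean was smaller, at 26 of 42 below 0 and a median of -0.01. The interval lay within 1.5-fold for 41 of 42 members, all but Cfp, against 72.3% of all genes.

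The comparison of ConvD with GF+SCFA livers sets mice with a microbiota against germ-free mice given short-chain fatty acids in water. Here 2 of 42 members were called (4.76%), both higher in ConvD livers, against 18.4% of all genes, 9.44% higher and 8.97% lower (1136 and 1080 genes, or 1515 and 752 with upper-quartile factors and 1541 and 586 with unscaled library totals). These were Fga, the alpha chain of fibrinogen, at 1.35-fold, and Serpinf2, the main plasmin inhibitor of plasma, at 1.24-fold. Of the 19 complement genes 0 were called by edgeR and 0 by DESeq2, and 1, C4b, had an unadjusted p under 0.05. Over all members 5 of 42 had such a p, 4 higher and 1 lower, against 33.1% of all genes, 17.3% higher and 15.8% lower. Of all members 22 lay above 0 and 20 below (47.6%, against 49.0% of all genes), with a median of 0.01 in the members and in all genes. With upper-quartile factors the split was 29 and 13, and with library totals 30 and 12. The medians of the members were then 0.067 and 0.085, beside 0.061 and 0.078 over all genes. Libraries did not overlap in 15 of 42 members (35.7%), 7 higher and 8 lower, against 38.0% of all genes, 19.0% higher and 18.9% lower. The interval lay within 1.5-fold for 39 of 42, the exceptions being C4b, Fga and Fgb, against 61.6% of all genes. Some markers of other cells were called here too. Higher in ConvD livers were 3 of 4 tested B and plasma cell markers (75.0%, median 1.74) and 5 of 8 stellate cell markers (62.5%). Of the biliary markers 1 of 5 was called higher (20.0%, near the 18.4% called over all genes). Of T and NK cell markers 0 of 4 tested were called, and of endothelial markers 0 of 8. The 6 B and plasma cell markers found summed to 5.74 to 7.81 TPM in ConvD livers, against 1.56 to 2.01 TPM in GF+SCFA livers. The 5 biliary markers summed to 44.2 to 76.0 TPM in ConvD livers, against 26.5 to 30.8 TPM in GF+SCFA livers. Their part in the Fga and Serpinf2 differences was not tested.

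**Figure D3:**
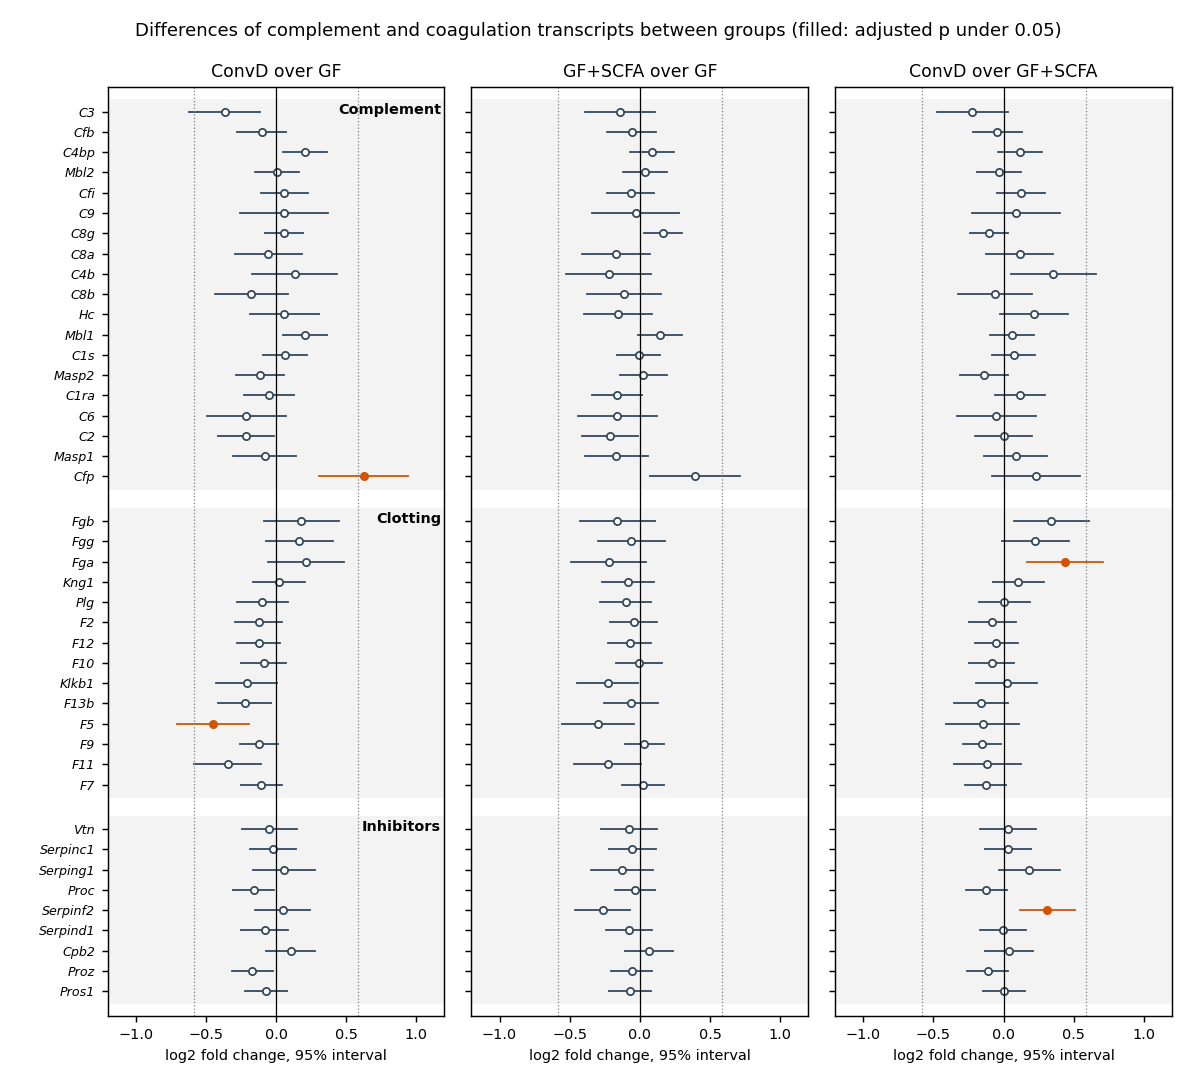
Log2 fold change with its 95% interval for each member in the 3 comparisons, from edgeR's fit of all 9 libraries. Filled orange points mark an adjusted p under 0.05 (Cfp and F5, none, and Fga and Serpinf2, from left to right), and dotted lines mark 1.5-fold either way.

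Among the complement genes, Cfp was the 1 called. Properdin stabilises the convertase of the alternative route, and unlike the other members it is known mainly as a product of myeloid cells. Cfp had 19.4, 28.4 and 24.8 CPM in ConvD livers, 17.6, 24.4 and 19.6 CPM in GF+SCFA livers and 16.5, 14.6 and 16.0 CPM in GF livers. In CPM all 3 ConvD livers lay above all 3 GF livers, and so did all 3 GF+SCFA livers, while ConvD and GF+SCFA livers overlapped. In TPM, GF+SCFA replicate 1 (17.8) fell just below GF replicate 3 (17.9), so GF+SCFA and GF livers overlapped. The log2 fold change was 0.62 (SE 0.15, edgeR adjusted p = 0.0169) for ConvD against GF, 0.39 (SE 0.15, edgeR adjusted p = 0.328) for GF+SCFA against GF and 0.23 (SE 0.14, edgeR adjusted p = 0.284) for ConvD against GF+SCFA. Behind these values stand 295 to 581 expected counts. The ConvD against GF call was lost without GF replicate 2 (adjusted p = 0.0629), ConvD replicate 2 (0.0524) or ConvD replicate 3 (0.0507).

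Markers of macrophages and of neutrophils and monocytes were higher beside Cfp in ConvD against GF livers. Of 12 Kupffer cell and macrophage markers 8 were called higher in ConvD than in GF livers (66.7%, against 5.93% of all genes). Of these markers 0 were called lower, against 6.90% of all genes, and their median log2 fold change was 0.64. Their summed level was 488 to 677 TPM in ConvD livers, 343 to 422 in GF+SCFA livers and 298 to 418 in GF livers. Of 8 tested neutrophil and monocyte markers 5 were called higher (62.5%, against 5.93% of all genes), with a median of 2.21. The 9 markers found summed to 104 to 145 TPM in ConvD livers, 59.2 to 89.6 in GF+SCFA livers and 57.7 to 84.7 in GF livers. Camp and Ltf were at 0 in every GF and GF+SCFA library, and Ngp in every GF+SCFA library. In GF+SCFA against GF livers 0 of 12 and 0 of 8 markers were called by edgeR, 0 and 1 had an unadjusted p under 0.05, and DESeq2 called 0 in each list. There 11 of 12 and 3 of 8 markers lay above 0, with medians of 0.19 and -0.10, beside 0.39 for Cfp. In ConvD against GF+SCFA livers 12 of 12 and 8 of 8 markers lay above 0. Of them 3 and 6 were called higher (25.0% and 75.0%, against 9.44% of all genes). Their medians were 0.39 and 2.71, beside 0.23 for Cfp, which was not called. The 3 red cell markers summed to 649, 2534 and 1548 TPM in ConvD livers, 379 to 633 TPM in GF+SCFA livers and 490 to 693 TPM in GF livers. For ConvD against GF, edgeR called 0 of these 3 and DESeq2 called 2, both higher. The part of any of these cells in the Cfp difference was not tested.

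The convertase components followed. C3 had 5017, 5177 and 5742 CPM in ConvD livers, 6536, 6200.1 and 5864 CPM in GF+SCFA livers and 6772, 8058 and 5689 CPM in GF livers, with overlap between ConvD and GF livers because GF replicate 3 fell below the highest ConvD library. All 3 ConvD livers were below the 3 GF+SCFA livers in CPM, while in TPM ConvD replicate 3 (1716) was above GF+SCFA replicate 3 (1709). The log2 fold change was -0.36 (SE 0.12, edgeR adjusted p = 0.0561) for ConvD against GF and -0.22 (SE 0.12, edgeR adjusted p = 0.202) for ConvD against GF+SCFA, and neither passed. Without GF replicate 2, the highest library, the difference from GF was -0.23 (adjusted p = 0.192), while it passed without GF replicate 3 (0.0127) or ConvD replicate 3 (0.0463). Cfb, the protease of the alternative convertase, had 936, 1058 and 1038 CPM in ConvD livers, 1084, 1023 and 1018 CPM in GF+SCFA livers and 1074, 1161 and 1019 CPM in GF livers, and its groups overlapped in all comparisons, with differences of -0.10 for ConvD against GF and -0.06 for GF+SCFA against GF.

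C4b, the complement C4 gene of the classical and lectin routes, had 1381, 1366 and 1081 CPM in ConvD livers, 1007, 1012 and 981 CPM in GF+SCFA livers and 1089, 1446 and 959 CPM in GF livers. Every ConvD library lay above every GF+SCFA library, whereas GF replicate 2 was the highest of all 9. The log2 fold change was 0.35 (SE 0.14, edgeR adjusted p = 0.101) for ConvD against GF+SCFA and 0.13 (SE 0.14, edgeR adjusted p = 0.574) for ConvD against GF, and without GF replicate 2 the first of these passed (adjusted p = 0.0252), as it did without GF replicate 3 (0.0465) or ConvD replicate 3 (0.0435). C4a, its near-identical neighbour, had 17.3 to 28.4 CPM in ConvD livers, 36.6 to 40.0 CPM in GF+SCFA livers and 15.4 to 38.5 CPM in GF livers. The authors' counting divides reads between such copies, so the value of C4b alone is uncertain. C2, the other part of that convertase, had 113 ± 11.6 CPM in ConvD livers, 114 ± 5.97 CPM in GF+SCFA livers and 132 ± 15.0 CPM in GF livers (SD, n = 3 each), and differed by -0.21 (SE 0.09, edgeR adjusted p = 0.149) for ConvD against GF, passing without GF replicate 3 (adjusted p = 0.0405).

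Mbl1 and Mbl2 encode mannose-binding lectins, which recognise microbial sugars. Mbl1 had 137, 154 and 166 CPM in ConvD livers, 146, 148 and 145 CPM in GF+SCFA livers and 129, 135 and 132 CPM in GF livers, and all ConvD and all GF+SCFA livers lay above the GF livers. In TPM, Mbl1 overlapped between GF+SCFA and GF livers, with 254.37 in GF replicate 3 against 253.24 in GF+SCFA replicate 1. Its log2 fold change was 0.20 (SE 0.07, edgeR adjusted p = 0.0799) for ConvD against GF and 0.14 (SE 0.07, edgeR adjusted p = 0.447) for GF+SCFA against GF, and the first passed without ConvD replicate 1 (adjusted p = 0.0354). Mbl2 had 267, 266 and 272 CPM in ConvD livers, 289.7, 259 and 275 CPM in GF+SCFA livers and 251, 264 and 288 CPM in GF livers, with overlap throughout, and its difference from GF was 0.00 in ConvD and 0.04 in GF+SCFA livers. Per length, Mbl2 stood 1.40 to 1.66 times as high as Mbl1 in ConvD livers, 1.49 to 1.69 times in GF+SCFA livers and 1.65 to 1.86 times in GF livers (ratio of TPM). The lectin route proteases Masp1 and Masp2 and the classical route proteases C1ra and C1s had log2 fold changes between -0.11 and 0.06 for ConvD against GF. None of these 4 passed in any comparison. C1rb, the paralog of C1ra, was listed at 0 in all libraries, so no reads were assigned to it.

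The membrane pore is built from C5 to C9, and C8 has 3 chains from 3 genes, none of them called. C8a had 764, 944 and 796 CPM in ConvD livers, 843, 686 and 786 CPM in GF+SCFA livers and 872, 975 and 756 CPM in GF livers. C8b had 363, 461 and 385 CPM in ConvD livers, 474, 361 and 426 CPM in GF+SCFA livers and 474, 498 and 395 CPM in GF livers. C8g had 219.6, 213 and 227 CPM in ConvD livers, 235, 241 and 235 CPM in GF+SCFA livers and 205, 214 and 217 CPM in GF livers. C8a and C8b were highest within ConvD and GF in replicate 2 of each, were lowest of all in GF+SCFA replicate 2, and overlapped between groups. C8g had more CPM in each GF+SCFA liver than in any ConvD or GF liver. In TPM, as plotted, it overlapped. ConvD replicate 1 (383) and GF replicate 3 (367) exceeded GF+SCFA replicates 1 (359) and 3 (362). The log2 fold changes for GF+SCFA against GF were 0.16 (SE 0.06, edgeR adjusted p = 0.339) for C8g, -0.17 (SE 0.11, edgeR adjusted p = 0.571) for C8a and -0.11 (SE 0.12, edgeR adjusted p = 0.744) for C8b.

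Hc, which encodes C5, the precursor of the pore's first component, had 1023, 1083 and 1156 CPM in ConvD livers, 979.6, 888 and 941 CPM in GF+SCFA livers and 1113, 1186 and 830.3 CPM in GF livers. Its ConvD livers lay above all GF+SCFA livers, and GF replicate 3 was the lowest of the 9, so the GF group spanned the others. The log2 fold change was 0.22 (SE 0.11, edgeR adjusted p = 0.200) for ConvD against GF+SCFA. C6 and C9, further pore components, differed by -0.21 (95% interval -0.49 to 0.07) and 0.06 (-0.25 to 0.37) for ConvD against GF. The C6 value turned on single GF libraries, at -0.09 without GF replicate 2 (adjusted p = 0.691) and -0.36 without GF replicate 3 (0.0211). Of the regulators counted with complement, C4bp, which helps to destroy C4b, had 557 to 589.8 CPM in ConvD livers, 513 to 544 CPM in GF+SCFA livers and 461 to 524 CPM in GF livers. No ConvD liver overlapped a GF liver, and the log2 fold change was 0.20 (SE 0.07, edgeR adjusted p = 0.0793). Cfi, the protease that inactivates C3b and C4b, differed by 0.06 (-0.11 to 0.23).

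**Figure D4:**
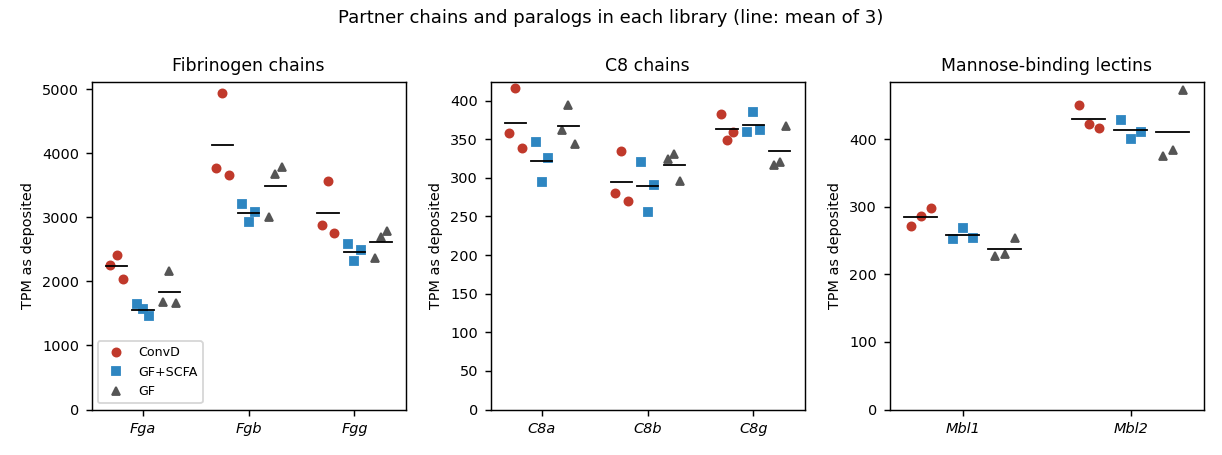
Deposited TPM of the fibrinogen chains (left), the C8 chains (middle) and the mannose-binding lectins (right) in each library, with ConvD left of GF+SCFA and GF; horizontal lines are means of 3. The 3 fibrinogen chains were each highest on average in ConvD livers and lowest in GF+SCFA livers.

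Fibrinogen is built from the alpha, beta and gamma chains of Fga, Fgb and Fgg, which lie next to each other in the genome. Fga had 3644, 4141 and 3616 CPM in ConvD livers, 3013, 2756 and 2653 CPM in GF+SCFA livers and 3039, 4033 and 2757 CPM in GF livers. Fgb had 3381, 4702 and 3622 CPM in ConvD livers, 3279, 2854 and 3124 CPM in GF+SCFA livers and 3031, 3824 and 3489 CPM in GF livers. Fgg had 2489, 3287 and 2623 CPM in ConvD livers, 2546, 2188 and 2444 CPM in GF+SCFA livers and 2305, 2709 and 2477 CPM in GF livers. For Fga and Fgb every ConvD library was above every GF+SCFA library, and for Fgg ConvD replicate 1 fell inside the GF+SCFA range. GF replicate 2 reached the ConvD range in all 3 chains, and ConvD and GF livers overlapped.

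For ConvD against GF+SCFA the log2 fold change was 0.44 (SE 0.13, edgeR adjusted p = 0.0273) for Fga, 0.34 (SE 0.12, edgeR adjusted p = 0.0740) for Fgb and 0.23 (SE 0.11, edgeR adjusted p = 0.170) for Fgg, so 1 of 3 chains passed. Without ConvD replicate 1 Fga was not called and Fgb lay at the threshold (adjusted p = 0.049998, under 0.05). Against GF, ConvD livers differed by 0.21 (SE 0.13, edgeR adjusted p = 0.283) for Fga, 0.18 (SE 0.12, edgeR adjusted p = 0.375) for Fgb and 0.16 (SE 0.11, edgeR adjusted p = 0.355) for Fgg. GF+SCFA livers differed from GF livers by -0.22, -0.16 and -0.06 in the same order of genes. These comparisons share libraries and are not independent of each other. Without GF replicate 2, Fga passed for ConvD against GF as well, at 0.39 (adjusted p = 0.0310). The Fga call against GF+SCFA was lost without GF+SCFA replicate 2 (adjusted p = 0.0907), GF+SCFA replicate 3 (0.105), ConvD replicate 1 (0.0555) or ConvD replicate 2 (0.101). Summed TPM of the 3 chains was 8463 to 10934 in ConvD livers, 6805 to 7432 in GF+SCFA livers and 7034 to 8543 in GF livers. Per length, Fgg stood at 0.72 to 0.76 of Fgb in ConvD livers, 0.79 to 0.81 in GF+SCFA livers and 0.73 to 0.79 in GF livers.

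The start regions of the 3 chains are shown because Fga was called and Fgb and Fgg are its neighbours and partners. Each window runs from 250 bases before to 50 bases after the start in RefSeq's table of the assembly GRCm38.p6, while the authors mapped to mm9. The windows are chr3:83025903-83026202 (plus strand) for Fga, chr3:83049814-83050113 (minus strand) for Fgb and chr3:83007474-83007773 (plus strand) for Fgg. Capitals mark the searched letters, written 5′ to 3′ on the gene's strand.
Fga: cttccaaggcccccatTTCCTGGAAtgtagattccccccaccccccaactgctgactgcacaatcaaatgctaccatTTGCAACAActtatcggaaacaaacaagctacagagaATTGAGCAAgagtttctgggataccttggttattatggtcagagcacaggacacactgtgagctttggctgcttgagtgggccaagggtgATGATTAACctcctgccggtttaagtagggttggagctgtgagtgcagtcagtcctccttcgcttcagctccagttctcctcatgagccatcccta
Fgb: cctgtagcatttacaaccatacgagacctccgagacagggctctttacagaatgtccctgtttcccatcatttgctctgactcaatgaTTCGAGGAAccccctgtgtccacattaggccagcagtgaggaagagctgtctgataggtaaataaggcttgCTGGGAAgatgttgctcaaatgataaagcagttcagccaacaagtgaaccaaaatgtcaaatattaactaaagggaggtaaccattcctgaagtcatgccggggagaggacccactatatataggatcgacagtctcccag
Fgg: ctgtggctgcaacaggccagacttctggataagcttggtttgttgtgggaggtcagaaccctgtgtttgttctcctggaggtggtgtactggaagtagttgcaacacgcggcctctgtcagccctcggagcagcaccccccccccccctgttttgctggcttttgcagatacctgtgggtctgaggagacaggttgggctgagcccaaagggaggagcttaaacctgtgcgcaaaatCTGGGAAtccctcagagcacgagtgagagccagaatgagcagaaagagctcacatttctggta
The letters searched, on both strands, were TTCNNNGAA (the STAT type), CTGGGAA (the type of interleukin-6 response elements), TTGCNNCAA and TTGCNNAAT (C/EBP type), TGNACTTTG (HNF4 type), GTTAATNAT (HNF1 type) and TATAAA. Fga held TTCNNNGAA, TTGCNNCAA, TTGCNNAAT and GTTAATNAT, Fgb held TTCNNNGAA and CTGGGAA, and Fgg held CTGGGAA. Windows were available for 33 of 42 members. TTCNNNGAA was in 24.2% of those and in 9.55% of all 27025 genes with a window, CTGGGAA in 21.2% and 12.7%, and TTGCNNCAA in 6.06% and 2.38%. TTGCNNAAT was in 15.2% and 2.77%, TGNACTTTG in 6.06% and 1.64%, GTTAATNAT in 12.1% and 0.94%, and TATAAA in 12.1% and 15.7%. The windows of Cfp, F5 and Serpinf2 held none of these letters. A match describes the letters of a window and is not a site.

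F5, the cofactor of factor X in the step that makes thrombin, was the clotting gene called in ConvD against GF livers. F5 had 602, 534 and 619 CPM in ConvD livers, 657, 678 and 613 CPM in GF+SCFA livers and 742, 982 and 673 CPM in GF livers. Every ConvD library was below every GF library, and GF replicate 2 stood far above the rest. The GF+SCFA livers lay between, overlapping both other groups at their edges. The log2 fold change was -0.45 (SE 0.12, edgeR adjusted p = 0.0281) for ConvD against GF, -0.30 (SE 0.12, edgeR adjusted p = 0.356) for GF+SCFA against GF and -0.15 (SE 0.12, edgeR adjusted p = 0.409) for ConvD against GF+SCFA. Without GF replicate 2 the first fell to -0.27 and was not called (adjusted p = 0.0773). It was also lost without ConvD replicate 1 (0.0687) or ConvD replicate 2 (0.114), with limma on TPM (0.0651 and 0.0657 for 2 pseudocounts) and in a fit of the 2 groups alone (0.0621).

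**Figure D5:**
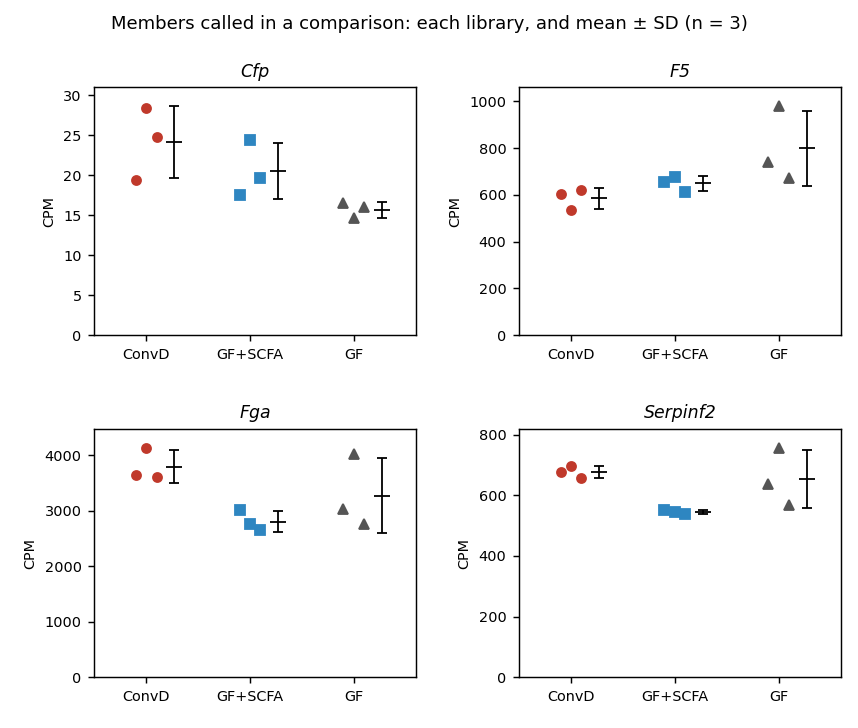
CPM of the 4 members called in any comparison (Cfp, F5, Fga, Serpinf2) in each library, with mean ± SD (n = 3) beside the points and ConvD left of GF+SCFA and GF. Cfp in ConvD lies above GF and F5 below it, and Fga and Serpinf2 in ConvD lie above GF+SCFA.

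The contact route includes F12, Klkb1 (prekallikrein), Kng1 (kininogen, its cofactor) and F11. F11 had 90.3, 93.3 and 106 CPM in ConvD livers, 113, 97.1 and 104 CPM in GF+SCFA livers and 119, 145 and 105 CPM in GF livers. ConvD replicate 3 just exceeded the lowest GF library, so the groups overlapped at 1 point. Its log2 fold change was -0.35 (SE 0.11, edgeR adjusted p = 0.0570) for ConvD against GF and -0.23 (SE 0.11, edgeR adjusted p = 0.430) for GF+SCFA against GF, and without GF replicate 2 the first was -0.21 (adjusted p = 0.184), while it passed without GF replicate 3 (0.0124) or ConvD replicate 3 (0.0456). Klkb1 had 237, 229 and 270.5 CPM in ConvD livers, 265, 231 and 231 CPM in GF+SCFA livers and 271, 327 and 252 CPM in GF livers, with overlap in all comparisons. Its difference was -0.23 (SE 0.10, edgeR adjusted p = 0.382) for GF+SCFA against GF and -0.21 (SE 0.10, edgeR adjusted p = 0.192) for ConvD against GF. F12 and Kng1 differed by -0.12 and 0.02 for ConvD against GF. Kng2, a paralog of Kng1 whose reads may be shared with it, had 205 to 237 CPM in ConvD livers, 217 to 236 CPM in GF+SCFA livers and 222 to 245 CPM in GF livers, and differed by -0.07 for ConvD against GF. In TPM, Kng1 stood 7.10 to 7.23 times above Kng2 in ConvD livers, 6.44 to 6.72 times in GF+SCFA livers and 6.10 to 7.15 times in GF livers.

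The vitamin K dependent clotting proteases F2, F7, F9 and F10 all had log2 fold changes below 0 for ConvD against GF, and none passed. They were -0.12 for F2, -0.10 for F7, which starts the tissue factor route, -0.12 for F9 and -0.09 for F10, with adjusted p of 0.323, 0.348, 0.225 and 0.473 by edgeR. F9, the protease that activates factor X beside factor VIII, had 184 to 197 CPM in ConvD livers, 208 to 215 CPM in GF+SCFA livers and 198 to 214 CPM in GF livers. Its ConvD libraries were below all others in CPM, though not in TPM, and its difference from GF+SCFA livers was -0.15 (SE 0.06, edgeR adjusted p = 0.109). F13b, the carrier subunit of the factor that cross-links fibrin, differed by -0.22 (SE 0.09, edgeR adjusted p = 0.111) for ConvD against GF, and by -0.34 without ConvD replicate 3 (adjusted p = 0.0142). Against GF+SCFA livers F13b passed without that library too (adjusted p = 0.0274). Plg, whose product plasmin dissolves fibrin, differed by -0.10 (95% interval -0.28 to 0.09).

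Of the inhibitors, Serpinf2 was the 1 gene called. Its product blocks plasmin. Serpinf2 had 677, 696 and 658 CPM in ConvD livers, 552, 546 and 538 CPM in GF+SCFA livers and 637, 758 and 570.1 CPM in GF livers. The GF+SCFA libraries lay close together and below every library of both other groups, and ConvD libraries lay inside the GF range. The log2 fold change was 0.31 (SE 0.09, edgeR adjusted p = 0.0304) for ConvD against GF+SCFA, -0.27 (SE 0.09, edgeR adjusted p = 0.292) for GF+SCFA against GF and 0.05 (SE 0.09, edgeR adjusted p = 0.783) for ConvD against GF. The call was lost without GF+SCFA replicate 1 (adjusted p = 0.0771), 2 (0.0879) or 3 (0.0964), and without ConvD replicate 1 (0.0790) or 2 (0.0886).

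Among the other inhibitors, Vtn, which binds the terminal complement complex, had 1535, 1644 and 1613 CPM in ConvD livers, 1624, 1572 and 1493 CPM in GF+SCFA livers and 1581, 1883 and 1486 CPM in GF livers. Serpinc1, the main inhibitor of thrombin, had 1738, 1713 and 1633 CPM in ConvD livers, 1713, 1615 and 1647 CPM in GF+SCFA livers and 1661, 1828 and 1675 CPM in GF livers. The groups overlapped for both genes in all 3 comparisons. For ConvD against GF, Vtn differed by -0.05 (95% interval -0.25 to 0.15) and Serpinc1 by -0.02 (-0.19 to 0.14). Serping1, which inhibits C1r, C1s and kallikrein, had 696, 712 and 619.7 CPM in ConvD livers, 617, 584 and 584 CPM in GF+SCFA livers and 614, 769 and 567 CPM in GF livers. All ConvD libraries exceeded all GF+SCFA libraries, with a log2 fold change of 0.18 (SE 0.10, edgeR adjusted p = 0.229). Serpind1 (heparin cofactor II, a thrombin inhibitor) and Cpb2 (a carboxypeptidase that slows fibrinolysis) differed by -0.08 and 0.10 for ConvD against GF.

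The protein C system inactivates factors V and VIII. Proc, its protease, had 409, 437 and 419.6 CPM in ConvD livers, 468, 459 and 453 CPM in GF+SCFA livers and 452, 494 and 468 CPM in GF livers. Proz, the cofactor of an inhibitor of factor X, had 263, 269 and 261 CPM in ConvD livers, 292, 281 and 284 CPM in GF+SCFA livers and 277, 315 and 300.3 CPM in GF livers. For both genes every ConvD library was below every library of the other groups in CPM. In TPM the groups overlapped. Proc had 453 TPM in ConvD replicate 2, against 452 in GF+SCFA replicate 1 and 442 in GF replicate 1. Proz had 189 TPM in ConvD replicate 1, against 184 in GF+SCFA replicate 1 and 176 in GF replicate 1. For ConvD against GF the log2 fold change was -0.16 (SE 0.07, edgeR adjusted p = 0.138) for Proc and -0.17 (SE 0.07, edgeR adjusted p = 0.113) for Proz, and neither passed. Pros1, the cofactor of protein C, had 58.8 to 61.0 CPM in ConvD livers, 57.3 to 66.0 CPM in GF+SCFA livers and 62.2 to 63.8 CPM in GF livers. Its ConvD libraries were also below its GF libraries in CPM, though not in TPM, with a log2 fold change of -0.07 (SE 0.07, edgeR adjusted p = 0.553).

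Other genes of these pathways were listed beside the 42. Of 25 other complement genes tested 4 were called for ConvD against GF (16.0%, against 12.8% of all genes), all higher, with a median of 0.22. Of 13 other clotting genes 1 was called higher and 2 lower (23.1%), with a median of -0.05. Of 14 other inhibitors 3 were called higher and 2 lower (35.7%), with a median of 0.07. C1qc and C1qa, chains of the recognition part of C1 and made by macrophages, were higher by 0.66 (SE 0.13, edgeR adjusted p = 0.00875) and 0.53 (SE 0.12, edgeR adjusted p = 0.0143), and both are in the Kupffer cell list above. Itgb2, the beta chain of the leukocyte complement receptors, was higher by 0.71 (SE 0.17, edgeR adjusted p = 0.0145). Tfpi2, a Kunitz-type protease inhibitor, was higher by 0.71 (SE 0.11, edgeR adjusted p = 0.00133), with 52.2, 43.0 and 42.5 CPM in ConvD livers, against 29.9, 26.4 and 27.9 CPM in GF livers. Serpine2, an inhibitor of thrombin and plasminogen activators, was lower by -1.10 (SE 0.15, edgeR adjusted p = 7.53e-04), with 7.13, 6.79 and 8.61 CPM in ConvD livers, against 16.6, 18.9 and 12.6 CPM in GF livers. Neither gene's groups overlapped. Thbd, the thrombin receptor that turns on protein C, was lower by -0.75 (SE 0.18, edgeR adjusted p = 0.0165), Gas6, a protein S relative, was higher by 0.46 (SE 0.10, edgeR adjusted p = 0.00922), and Lman1, the cargo receptor for factors V and VIII, was lower by -0.32 (SE 0.07, edgeR adjusted p = 0.00695).

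In GF+SCFA against GF livers edgeR called 0 of 25, 0 of 13 and 0 of 14 of these genes. DESeq2 called 0, 1 (F2r, lower) and 0, and 1, 4 and 4 had an unadjusted p under 0.05, against 12.3% of all genes. Against GF+SCFA livers, ConvD livers had 2 of 25 other complement genes called (8.0%), both higher. Of the clotting genes 6 of 13 were called (46.15%), 3 higher and 3 lower. Of the inhibitors 6 of 14 were called (42.86%), 4 higher and 2 lower. Over all genes 18.4% were called, 9.44% higher and 8.97% lower. Serpine2 differed by -1.47 (SE 0.15, edgeR adjusted p = 6.60e-05), Tfpi2 by 0.74 (SE 0.11, edgeR adjusted p = 5.31e-04) and Lman1 by -0.49 (SE 0.07, edgeR adjusted p = 3.30e-04). F3, tissue factor, had 3.49, 3.37 and 2.82 CPM in ConvD livers, against 2.04, 1.09 and 1.09 CPM in GF+SCFA livers, without overlap, and was higher by 1.21 (SE 0.24, edgeR adjusted p = 0.00360). Anxa5, an anticoagulant phospholipid binder, and Gas6 were higher by 0.48 and 0.45, Mug2, a relative of alpha-macroglobulin, by 0.57, and Thbd was lower at -0.89, with edgeR adjusted p of 0.00329, 0.00645, 0.00800 and 0.00436.

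Among 18 acute phase genes, 4 were called for ConvD against GF (22.2%, against 12.8% of all genes). Of these 3 were higher and 1 lower, and the median of the list was 0.08. Lcn2 (lipocalin) was higher by 1.71 (SE 0.24, edgeR adjusted p = 8.72e-04), Apcs (serum amyloid P) by 0.59 (SE 0.10, edgeR adjusted p = 0.00194) and Orm1 (orosomucoid) by 0.38 (SE 0.10, edgeR adjusted p = 0.0231), while Crp was lower by -0.41 (SE 0.08, edgeR adjusted p = 0.00645). Of 20 genes for liver transcription factors and cytokine signalling 3 were called (15.0%), with a median of -0.07. Cebpa and Foxa2, which encode liver transcription factors, were higher by 0.37 (SE 0.09, edgeR adjusted p = 0.0168) and 0.85 (SE 0.20, edgeR adjusted p = 0.0211), and Il6ra, the interleukin-6 receptor, was lower by -1.14 (SE 0.14, edgeR adjusted p = 7.53e-04). Il6ra had 20.4, 26.6 and 32.6 CPM in ConvD livers, against 60.2, 57.9 and 57.4 CPM in GF livers, without overlap. The fibrinogen chains, acute phase genes too, did not pass in that comparison, except Fga without GF replicate 2. For ConvD against GF+SCFA, where Fga was called, 4 of 18 acute phase genes were called, with a median of 0.16. That is 22.2%, against 18.4% of all genes. Apcs and Lcn2 were higher by 0.73 and 1.40, and Crp and Saa4 (a serum amyloid A) were lower at -0.53 and -0.87. Of the 20 transcription and signalling genes 5 were called (25.0%), with a median of -0.12. Cebpa and Foxa2 were higher by 0.49 and 0.89, and Il6ra, Hnf4a and Creb3l3 were lower at -1.09, -0.30 and -0.22.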

How the data were processed

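RNA of 9 mouse livers was sequenced from libraries prepared by a stranded poly(A) method (Illumina TruSeq Stranded mRNA), per the labels' protocols. Bowtie2, RSEM 1.2.23 and the build mm9 are named in the submitters' processing notes. The strand setting is not given in the sources used here, and overlapping antisense genes could share reads. The authors deposited estimated counts (RSEM expected counts, not normalised) and TPM (normalised for length and depth, per the file headers). Of the expected counts above 0, 46.685% are not whole (tolerance 0.005), because RSEM divides reads between similar genes.

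Expected counts were rounded and fitted with edgeR 4.0.16 (R 4.3.3) over 12037 genes kept by filterByExpr (minimum count 10), with TMM factors of 0.935 to 1.06, the 3 groups and no other term, robust quasi-likelihood dispersions and 6 residual degrees of freedom. P-values of the quasi-likelihood F test were adjusted by the Benjamini-Hochberg method over all genes tested. The SE was taken as the log2 fold change over the root of F, and intervals are 95%. The biological coefficient of variation was 10.6%. Between libraries of a group the chi-square, per degree of freedom, was 10.8 to 51.2, so none was a copy of another. The fit was also run on counts simulated from its own means and dispersions, which cannot check whether its model holds for these data.

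The members and lists were chosen with earlier results of these data known. Each member is named, and values in every library are given for called members, the 2 most abundant and the 2 with the smallest p of each role in each comparison, Cfp, and the chains of complexes. Alternatives were DESeq2 1.42.0, limma 3.58.1 on log2(TPM + 1) and log2(TPM + 0.1), 3 other scalings, no filter, a fit of the groups compared only, a replicate block and each library left out. Promoter windows are RefSeq's for GRCm38.p6. FPKM values were not used here.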

Additional observations from a re-analysis of the deposited data

How the results depend on the processing

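No member changed sign under any of the 18 alternatives in a comparison in which any setting called it. Between ConvD and GF livers 2 members were called, and 4 with upper-quartile factors (C4bp, Cfp, F5, Mbl1) or library totals (the same), 4 with DESeq2 (C3, Cfp, F11, F5) or no filter on low counts (the same), and 1 (Cfp) with limma at either pseudocount or with libraries of the 2 groups only. Leaving out 1 library gave 0 to 6, with 0 without ConvD replicate 2, 1 (Fga) without GF replicate 2, 6 (C2, C3, C6, Cfp, F11, F5) without GF replicate 3, 4 (C3, F11, F13b, F5) without ConvD replicate 3, and 2 (Cfp, Mbl1) without ConvD replicate 1. Between ConvD and GF+SCFA livers 2 members were called, and 4 with library totals (C4b, Fga, Fgb, Serpinf2). Leaving out 1 library gave 0 to 4, with 0 without GF+SCFA replicate 2, GF+SCFA replicate 3 or ConvD replicate 2, 1 without GF+SCFA replicate 1 or ConvD replicate 1, and 4 without ConvD replicate 3. For GF+SCFA against GF, 0 members were called under every alternative.

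Over all genes, 1544 were called for ConvD against GF, with 956 and 887 by limma with pseudocounts 1 and 0.1, and 849 to 1466 with 1 library left out (918 without GF replicate 1, 936 without ConvD replicate 1, 849 without ConvD replicate 2). For GF+SCFA against GF 5 were called, with 9 by library totals, 80 by DESeq2, 1 and 1 by limma, 24 without a filter, and 0 to 173 with 1 library left out (173 without GF replicate 3). For ConvD against GF+SCFA 2216 were called, and 1383 to 2393 with 1 library left out (1383 without GF+SCFA replicate 2, 1400 without GF+SCFA replicate 3, 1465 without ConvD replicate 2). The cause of these shifts was not tested.

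Correlations of same-numbered deviations ran from -0.07 to 0.14. None was computed between differently numbered libraries, so these values cannot decide whether replicate numbers pair the livers. With the replicate block, 2, 0 and 3 members were called (C4b was added against GF+SCFA), and 1514, 5 and 2195 genes, for ConvD against GF, GF+SCFA against GF and ConvD against GF+SCFA.

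With 3 libraries a group, small differences can be missed, and a member that was not called is bounded only by its interval. Each member had at least 295 expected counts in every library.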

Other observations

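Some hepatocyte and stellate cell markers were called between the groups, beside the lists given above. For ConvD against GF livers, edgeR called 4 of 10 hepatocyte markers (40.0%, against 12.8% of all genes). Ttr (transthyretin) was higher by 0.36. Tat (tyrosine aminotransferase), Cps1 (a urea cycle enzyme) and Ahsg (fetuin) were lower, at -1.14, -0.67 and -0.47 on the log2 scale. Against GF+SCFA livers the same 4 genes were called in ConvD livers (40.0%, against 18.4% of all genes), at 0.30, -1.24, -0.47 and -0.42. The 8 stellate cell markers summed to 163 to 184 TPM in ConvD livers, 121 to 140.0 TPM in GF+SCFA livers and 133 to 185 TPM in GF livers. Of these 5 were called higher in ConvD than in GF+SCFA livers (62.5%, against 9.44% of all genes). Between ConvD and GF livers 0 of 8 were called by edgeR or by DESeq2 (0 at an unadjusted p under 0.05). In GF+SCFA against GF livers 1, Col3a1 (a fibrillar collagen), was called lower (12.5%, against 0.0332% of all genes). Col3a1 had 15.4, 14.0 and 14.6 CPM in GF+SCFA livers, against 25.0, 31.2 and 21.3 CPM in GF livers, with a log2 fold change of -0.82 (edgeR adjusted p = 0.0397).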
